A study of Mus musculus with 9 samples.

Results

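The genes described here are Cyfip2 and the other subunits of the WAVE regulatory complex in the left ventricle of mice. There were 10 of them: Cyfip1, Cyfip2, Nckap1, Nckap1l, Wasf1, Wasf2, Wasf3, Abi1, Abi2 and Brk1. Cyfip2 was selected on its lower counts in the knockout of delta-sarcoglycan in these same libraries. The other 9 are its paralog and its partners in the complex, and were listed for that reason. All 10 had an identifier among the 49671 in the count tables, and all 10 were among the 15261 genes that passed the filter on low counts and were tested.

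The ventricles came from wild-type (WT) mice and from mice called dSG KO in the labels (KO), dSG being the usual short name of delta-sarcoglycan, the product of Sgcd. Delta-sarcoglycan sits in the dystrophin-glycoprotein complex of the muscle cell membrane. Each genotype was given vehicle or ifetroban, an antagonist of the thromboxane-prostanoid receptor. There were 4 WT libraries of polyadenylated RNA, 2 with vehicle and 2 with ifetroban, and 5 KO libraries, 2 with vehicle and 3 with ifetroban. The strain, age, sex, dose and length of treatment were not given in the sources used here, nor was the design of the knockout allele or whether it was limited to a cell type.

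The WAVE regulatory complex starts branched actin networks. A CYFIP subunit and an NCKAP1 subunit form a large scaffold, on which a WASF (WAVE) protein, an ABI adaptor and the small protein BRK1 are held in an inactive state. Active Rac GTPase binds the CYFIP subunit, the WASF protein is released, and its tail switches on the Arp2/3 complex, which grows new actin branches from existing filaments. Each complex holds a single paralog of each family, so the paralogs of a family take the same place. CYFIP proteins also bind the fragile X protein FMRP and the cap-binding factor eIF4E in the control of translation. In muscle, cortical actin lies next to dystrophin and its partners at the membrane.

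The results turn on telling Cyfip2 from Cyfip1, so a stretch of the coding sequence of each is shown. The stretches run from base 984 to base 1087 of coding sequences of 3762 bases each, counted from the start codon, in the longest coding transcripts of the GENCODE annotation of GRCm38. Capitals mark the 22 of 104 bases that differ, and the run of identical bases in the middle is the longest in the alignment, at 24 bases.
Cyfip1: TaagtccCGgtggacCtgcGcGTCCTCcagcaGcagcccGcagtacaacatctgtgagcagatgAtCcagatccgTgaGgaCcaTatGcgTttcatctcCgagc
Cyfip2: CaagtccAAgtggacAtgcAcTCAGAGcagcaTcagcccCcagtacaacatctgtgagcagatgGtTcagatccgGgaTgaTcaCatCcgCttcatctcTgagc
Over the 3759 aligned coding bases the paralogs were identical at 77.7%. At the aligned positions, a read longer than 24 bases cannot match both paralogs without a mismatch.

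Cyfip2 (ENSMUSG00000020340) lies on chromosome 11 of GRCm38, from 46193850 to 46312859 on the minus strand. Its promoter entry in RefSeq (GRCm38.p6, chr11:46312309-46312608, minus strand) is shown because the amount of this transcript differed between the genotypes. It covers 250 bases before to 50 after the RefSeq start, and capitals mark the GC box GGGCGG.
Cyfip2 promoter: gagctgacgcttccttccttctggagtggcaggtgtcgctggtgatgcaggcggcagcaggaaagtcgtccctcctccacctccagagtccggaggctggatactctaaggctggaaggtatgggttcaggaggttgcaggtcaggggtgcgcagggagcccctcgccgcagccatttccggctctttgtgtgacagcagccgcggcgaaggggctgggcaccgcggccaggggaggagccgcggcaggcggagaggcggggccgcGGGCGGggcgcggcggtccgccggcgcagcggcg
The window had a GC content of 70.7% and 29 CpG dinucleotides, against medians of 52.7% and 7 over 32851 promoters of the same length. At least 29 CpG were found in 12.9% of those promoters. Searched on both strands, the window held 1 GC box (GGGCGG, present in 35.7% of promoters) and neither CCAAT (37.4%) nor TATAAA (13.6%). RefSeq promoter entries matched 6 of the 10 genes by symbol.

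Sgcd, the targeted gene, checks the labels. It stood at 11.1 and 28.9 CPM in WT vehicle and 33.1 and 31.2 in WT ifetroban. In KO it stood at 7.49 and 12.1 CPM with vehicle and at 9.77, 16.4 and 18.5 with ifetroban. CPM are read counts divided by the library's total in genes, on the usual scale, with totals adjusted by TMM. The value of 11.1 CPM, in the library labelled WT vehicle replicate 1, lay within the KO values, so Sgcd did not bear out that label. It was the only WT library among those with few reads on long transcripts, described below. In that class the mean of the 3 KO libraries was 9.78 CPM. In the other libraries the means were 31.1 CPM in WT (n = 3) and 17.4 in KO (n = 2). Of the 10 members, 3 had CPM ranges that did not overlap between the genotypes, with the library labelled WT vehicle replicate 1 counted as WT. They were Cyfip2, Nckap1l and Abi1, at 194, 6.88 and 25.8 CPM in this library. The KO libraries had 17.5 to 44.9, 13.2 to 16.9 and 26.5 to 29.3 CPM. Whether the label or the reads on long transcripts had a part in its Sgcd value was not tested. The WT vehicle values in all comparisons below hold the library labelled WT vehicle replicate 1.

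Counts in genes ran from 21299748 to 31394548 per library. Fewer reads fell on long transcripts, relative to short ones, in 4 libraries than in the other 5. These 4 were KO ifetroban replicate 1, the KO vehicle pair and, of the WT, the library labelled WT vehicle replicate 1. Markers of ventricular cardiomyocytes summed to 78020 to 81010 CPM in WT and 63670 to 72590 in KO, and all 12 were read in every library. Leukocyte markers summed to 304.5 to 451.9 CPM in WT and 672.3 to 1017 in KO, and fibroblast markers to 2142 to 2497 and 2551 to 3736. The atrial marker list ran from 209 to 281.1 CPM in WT and from 365.3 to 1281 in KO. Nearly all of that was Nppa, at 208 to 279 CPM in WT and 363 to 1280 in KO. Of the 5 atrial markers listed 2 were tested. The other tested marker, Myl4, had 1.23 to 1.74 CPM in WT and 1.35 to 2.29 in KO and was not called. The sums were 972.6 to 1267 CPM in WT and 1004 to 1261 in KO for endothelial markers, 1240 to 1692 and 1266 to 1540 for pericyte and smooth muscle markers, and 17.07 to 20.07 and 18.42 to 35.96 for markers of neurons and Schwann cells. The part of these differences in the results below was not tested unless a value is given.

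Cyfip2 was far lower in KO than in WT, which is why it was selected. It stood at 194 and 266 CPM in WT vehicle (3777 and 6897 reads) and at 255 and 265 CPM in WT ifetroban (6655 and 6677 reads). In KO vehicle it stood at 17.5 and 33.0 CPM (377 and 831 reads), and in KO ifetroban at 25.6, 27.6 and 44.9 CPM (547, 900 and 1157 reads). All 5 KO libraries were low, all 4 WT libraries were high, and the library labelled WT vehicle replicate 1 was the lowest of the latter. The mean was 245 ± 34.5 CPM in WT (SD, n = 4) and 29.7 ± 10.1 in KO (SD, n = 5), so that 12.1% of the WT mean was left. The lowest WT library was 4.32-fold above the highest KO library.

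The fitted log2 fold change of Cyfip2 was -3.19 ± 0.367 (SE) with vehicle, -2.99 ± 0.312 with ifetroban and -3.09 ± 0.243 averaged over treatments. These values chose the gene and are a description with no test. Of the 15261 genes tested, 3 had a lower averaged fold change. Within the libraries with long transcripts low (3 KO, and 1 WT whose Sgcd lay within the KO values) the log2 difference of mean CPM was -2.93. Within the others (2 KO, 3 WT) it was -2.85. In bulk tissue, fewer cells that use a gene and less of its RNA per cell cannot be told apart.

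Per kb of exonic length, Cyfip2 ranked 933rd from the top among 13498 protein-coding genes tested in WT, at 34.5 CPM per kb. In KO it ranked 6063rd, at 4.18 CPM per kb. Cyfip1 ranked 5836th in WT and 5575th in KO.

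**Figure D1:**
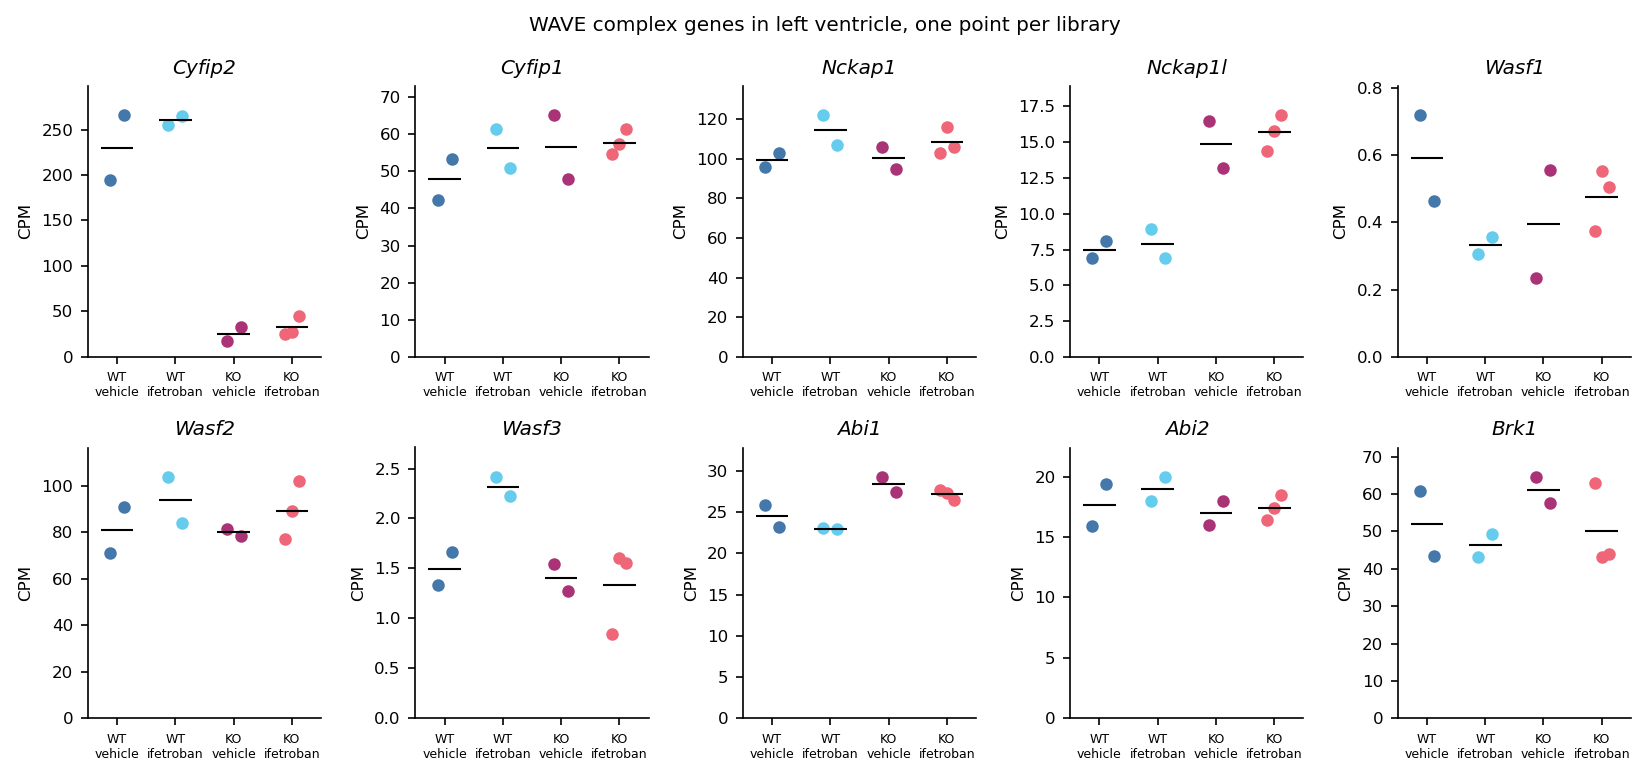
Level of each of the 10 WAVE complex genes in CPM (linear axes from 0, a scale per gene), with 1 point per library and a line at the mean of each group. The Cyfip2 points of the 5 KO libraries lie between 17.5 and 44.9 CPM, below all 4 WT libraries, and the Nckap1l points of KO lie between 13.2 and 16.9 CPM, above all 4 WT libraries.

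Reads on the opposite strand were few at Cyfip2. Of the reads on both strands they made up 0.834% to 2.05% in WT (56 to 140 reads) and 0.662% to 3.08% in KO (6 to 13 reads). Fndc9, which overlaps Cyfip2 on the opposite strand, had 0 or 1 read in every library.

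Ifetroban did not change Cyfip2 detectably in either genotype, and this the choice of the gene had not used. In WT the log2 difference of ifetroban from vehicle was 0.17 ± 0.335 (SE, edgeR adjusted p = 0.999), and leaving out the library labelled WT vehicle replicate 1 gave -0.03. In KO it was 0.37 ± 0.314 (edgeR adjusted p = 0.709), and leaving out KO vehicle replicate 1 gave -0.01, leaving out KO vehicle replicate 2 gave 0.91. The difference between genotypes in the response to the drug was 0.19 ± 0.458 (edgeR adjusted p = 1). No gene was called by edgeR in these 3 comparisons (0% of those tested in each), with 192, 766 and 211 genes at an unadjusted p under 0.05. DESeq2 called 0 genes in WT, 2 higher and 1 lower in KO, and 0 for the interaction. The edgeR count in KO changed when KO vehicle replicate 2 was left out, a fit with 1 library in that group. Without the filter on low counts edgeR called 168 higher and 260 lower in KO, 6 and 28 in WT, and 16 and 57 for the interaction. With 2 or 3 libraries a group and errors of this size, a moderate effect could not be seen.

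Cyfip1 (ENSMUSG00000030447, chromosome 7, 55841745 to 55932602, plus strand), the paralog that can take the place of Cyfip2 in the complex, did not pass the test. It stood at 42.4 and 53.4 CPM in WT vehicle, 61.5 and 50.9 in WT ifetroban, 65.2 and 48.0 in KO vehicle, and 54.6, 57.4 and 61.3 in KO ifetroban. The genotypes overlapped, and the library labelled WT vehicle replicate 1 was the lowest of the 9. The averaged log2 fold change was 0.14 ± 0.137 (SE, edgeR adjusted p = 0.618), and it was -0.05 without that library and KO vehicle replicate 1 together.

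The pair of CYFIP genes differed in makeup between the genotypes. As CPM per kb of exonic length, Cyfip2 made up 88.5%, 89.4%, 87.5% and 89.7% of the CYFIP total in the 4 WT libraries. It made up 31.1% and 53.6% in KO vehicle, and 44%, 44.7% and 55.2% in KO ifetroban. The mean share was 88.8% ± 1.01 in WT (SD, n = 4) and 45.7% ± 9.59 in KO (SD, n = 5). This share contains the values that chose Cyfip2 and is given without a test. The CYFIP total was 38.8 ± 5.38 CPM per kb in WT and 8.99 ± 1.44 in KO. The lower total in KO restates the fall of Cyfip2, as Cyfip1 stood at 4.36 CPM per kb in WT and 4.8 in KO. The exonic length of Cyfip1 in the annotation, 11.9 kb, is long for its coding transcript of 6.44 kb. With the lengths of the longest coding transcripts the shares of Cyfip2 were 82% ± 1.49 and 33% ± 8.32.

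**Figure D2:**
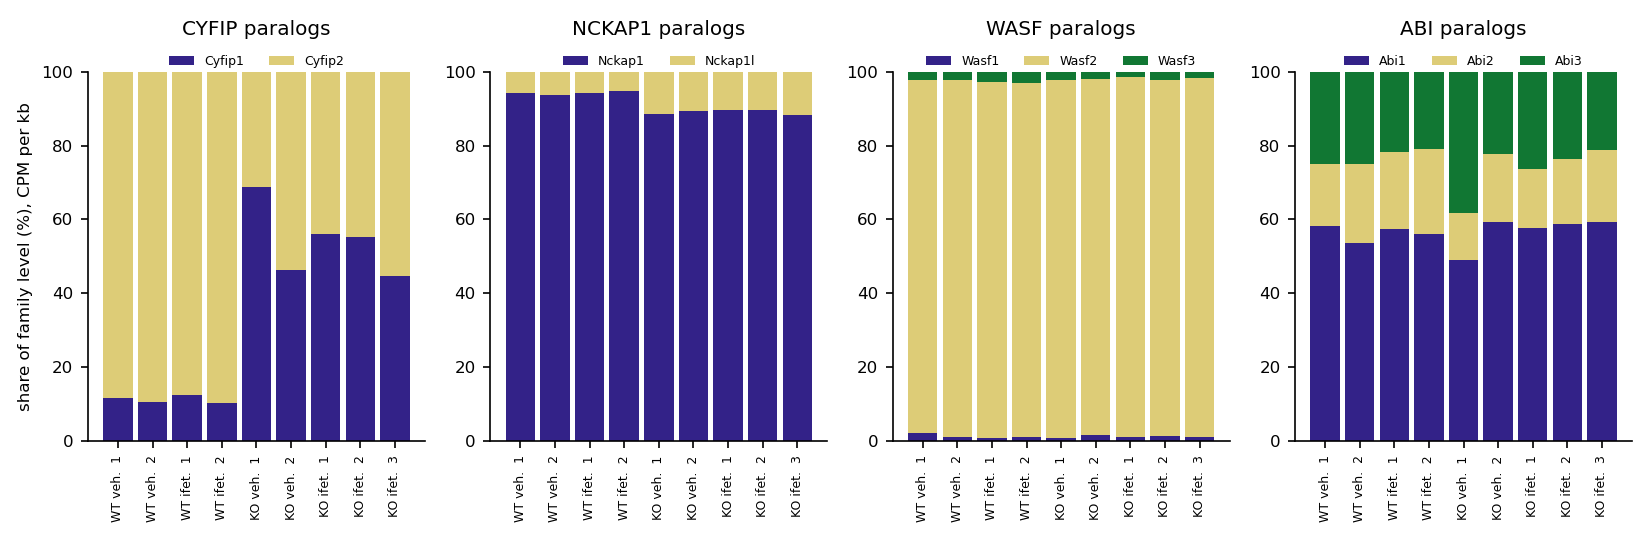
Share of each paralog in the summed level of its family (percent of CPM per kb of exonic length) in each of the 9 libraries, with a panel per family; each stacked bar is 1 library. Cyfip2 takes 87.5% to 89.7% of the CYFIP bar in WT and 31.1% to 55.2% in KO, and the WASF bars are nearly filled by Wasf2 in every library.

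Of the 9 genes other than Cyfip2, 1 was called between KO and WT averaged over treatments (edgeR adjusted p under 0.05), and it was higher in KO. Over all tested genes 0.537% were called in that comparison, 77 higher and 5 lower. This count depended on single libraries. It was 1352 higher and 746 lower without KO vehicle replicate 2, 30 and 3 when the first KO vehicle replicate was left out, and 20 and 2 when KO ifetroban replicate 1 was. Without any other single library it was 0 to 6 higher and 2 lower. With vehicle alone 0 of the 9 were called and 1 had an unadjusted p under 0.05, where 0.0524% of all genes were called. With ifetroban alone 0 of the 9 were called and 2 had an unadjusted p under 0.05, where 0.0131% were called. DESeq2 called 1 of the 9 in each of these comparisons, where it called 2.44% of all genes with an adjusted p with vehicle, 0.429% with ifetroban and 4.48% averaged over treatments. The median log2 fold change of the 9 was -0.01 in the averaged comparison, from -0.44 to 0.98, beside a median of -0.0036 over all genes. Among the 9, Nckap1l and Abi1 had CPM ranges that did not overlap between the genotypes, as did 7.31% of all tested genes. The ranges of Cyfip2 did not overlap either, but it was selected on that difference and is not counted.

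Nckap1 and Nckap1l encode the partner of the CYFIP subunit in the scaffold. Nckap1 (ENSMUSG00000027002, chromosome 2, 80500512 to 80581380, minus strand), the form of most tissues, had 95.7 and 103 CPM in WT vehicle and 122 and 107 in WT ifetroban. In KO it had 106 and 94.7 CPM with vehicle and 103, 116 and 106 with ifetroban. The genotypes overlapped, with an averaged log2 fold change of -0.03 ± 0.108 (SE, edgeR adjusted p = 0.898), which was 0.01 without WT ifetroban replicate 1 and 0.01 with a term for the 2 classes of libraries by long transcripts.

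Nckap1l (ENSMUSG00000022488, chromosome 15, 103453794 to 103498810, plus strand), also called HEM1, is the form of blood cells. It had 6.88 and 8.11 CPM in WT vehicle and 8.90 and 6.93 in WT ifetroban. In KO it had 16.5 and 13.2 CPM with vehicle and 14.4, 15.8 and 16.9 with ifetroban. All 5 KO libraries lay above all 4 WT libraries. Averaged over treatments Nckap1l rose by a log2 fold change of 0.98 ± 0.145 (SE, edgeR adjusted p = 0.0324), a 1.98-fold difference. It was 0.98 ± 0.213 with vehicle (edgeR adjusted p = 0.222) and 0.99 ± 0.197 with ifetroban (edgeR adjusted p = 0.543), not called in either.

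The call on Nckap1l was near the threshold while its size held. Without any single library of the 4 WT and 5 KO except KO vehicle replicate 2 it was no longer called, with edgeR adjusted p from 0.0581 (without KO ifetroban replicate 1) to 0.257 (without WT ifetroban replicate 2). Leaving out a KO vehicle library or a WT library left 1 library in that group. Whether Nckap1l was called in those fits rests on the spread within the other groups. The log2 fold change stayed between 0.9 and 1.08 over these 9 fits. It was 0.85 (edgeR adjusted p = 0.0807) when the library labelled WT vehicle replicate 1 and the first KO vehicle replicate were left out together. Within the classes of libraries by long transcripts it was 1.1 (3 KO, 1 WT) and 1.03 (2 KO, 3 WT). In DESeq2 the averaged value was 0.97, with an adjusted p of 8.45e-06.

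Leukocyte markers moved with Nckap1l. Of 23 listed, 21 were tested, all 21 had positive averaged log2 fold changes with a median of 1.11, and 16 did not overlap between the genotypes, where 7.31% of all tested genes did not. Of the 21, 4 were called higher in edgeR, where 0.537% of all genes were called: Lyz2, a lysozyme of macrophages, Ptprc, the pan-leukocyte antigen CD45, Laptm5, a lysosomal protein of blood cells, and Tyrobp, an adaptor of myeloid receptors. Ptprc had 6.10 to 8.74 CPM in WT and 11.9 to 16.0 in KO, and a log2 fold change of 0.94 ± 0.155 (edgeR adjusted p = 0.0451). Like Nckap1l, these 4 were no longer called without any single library other than KO vehicle replicate 2. DESeq2 called 18 of the 22 for which it gave an adjusted p, where it called 4.48% of all genes with an adjusted p. With the filter of CPM 1 in 2 libraries edgeR called 0 of 20. With a term for the classes of libraries by long transcripts it called 0 of 21. Among the markers the T cell gene Cd3d was at 0 in at least 1 library.

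Nckap1l was also set against single leukocyte genes in each library. Its CPM divided by that of Ptprc was 1.09 ± 0.0501 in WT (SD, n = 4) and 1.11 ± 0.118 in KO (SD, n = 5), and the ranges overlapped. Divided by Csf1r, the receptor gene of macrophages, it was 0.163 to 0.194 in WT and 0.216 to 0.266 in KO, and the ranges did not overlap. Divided by Lyz2 it was 0.0483 to 0.0775 in WT and 0.0447 to 0.0779 in KO. The part of the leukocyte markers in the difference of Nckap1l was not tested beyond these ratios. Per kb of exonic length, Nckap1l made up 5.68% ± 0.429 of the NCKAP1 family in WT and 10.9% ± 0.688 in KO, and the family total was 22.8 ± 2.33 and 23.8 ± 1.72 CPM per kb.

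**Figure D3:**
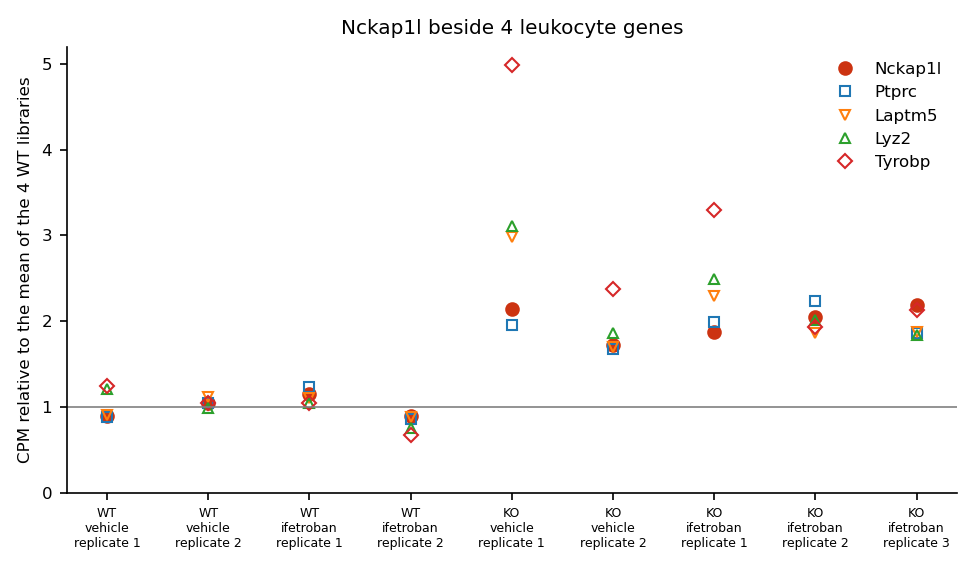
CPM of Nckap1l (filled circles) and of the 4 called leukocyte markers (open symbols) in each library, each divided by its mean over the 4 WT libraries (linear axis from 0, line at 1). Nckap1l lies at 0.893 to 1.15 in WT and at 1.72 to 2.19 in KO, and Tyrobp has the widest spread among the KO libraries.

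WASF proteins carry the tail that activates Arp2/3. Wasf2 (WAVE2; ENSMUSG00000028868, chromosome 4, 133130505 to 133199756, plus strand), the form used widely outside the nervous system, was the main one here. It had 71.0 and 90.7 CPM in WT vehicle and 104 and 83.8 in WT ifetroban, against 81.6 and 78.6 in KO vehicle and 77.0, 89.0 and 102 in KO ifetroban. The genotypes overlapped, and the averaged log2 fold change of -0.04 ± 0.136 (SE, edgeR adjusted p = 0.898) ran from -0.14 to 0.04 when single libraries were left out. Wasf2 made up 96.3% ± 0.535 of the WASF level per kb in WT and 97.1% ± 0.467 in KO. Wasf2 was lower in the 4 libraries with long transcripts low (71.0 to 81.6 CPM) than in the other 5 (83.8 to 104 CPM), whatever the genotype.

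Wasf1 (WAVE1; ENSMUSG00000019831, chromosome 10, 40883475 to 40938570, plus strand) and Wasf3 (WAVE3; ENSMUSG00000029636, chromosome 5, 146384985 to 146473615, plus strand), best known from brain, were low. Wasf1 had 5 to 18 reads per library, 0.307 to 0.719 CPM in WT and 0.233 to 0.556 in KO. Its averaged log2 fold change of -0.01 ± 0.435 (SE, edgeR adjusted p = 0.996) turned positive without any of 4 libraries, to 0.23 without KO vehicle replicate 1. At this depth a change of Wasf1 was not detectable. Wasf3 had 1.33 and 1.66 CPM in WT vehicle and 2.42 and 2.22 in WT ifetroban, against 1.54 and 1.27 in KO vehicle and 0.841, 1.60 and 1.55 in KO ifetroban. With ifetroban the 3 KO libraries lay below both WT libraries, at a log2 fold change of -0.79 ± 0.337 (SE, unadjusted p = 0.0426, edgeR adjusted p = 0.979), and with vehicle the genotypes overlapped. Averaged over treatments the log2 fold change of Wasf3 was -0.44 ± 0.257 (edgeR adjusted p = 0.402). It was -0.2 with a term for the classes of libraries by long transcripts, and -0.13 and -0.42 within the low and the high class. Whatever the genotype, Wasf3 had 0.841 to 1.54 CPM in the low class and 1.55 to 2.42 in the high class.

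ABI proteins link WASF to the scaffold and to adaptors with SH3 domains. Abi1 (ENSMUSG00000058835, chromosome 2, 22940073 to 23040241, minus strand) had 25.8 and 23.2 CPM in WT vehicle and 23.1 and 22.9 in WT ifetroban. In KO it had 29.3 and 27.4 CPM with vehicle and 27.7, 27.3 and 26.5 with ifetroban. All KO libraries lay above all WT libraries, by a small margin, and the library labelled WT vehicle replicate 1 was the highest of the WT. The averaged log2 fold change was 0.22 ± 0.102 (SE, unadjusted p = 0.0538, edgeR adjusted p = 0.311), from 0.17 to 0.25 when single libraries were left out, so Abi1 was not called. Pdss1, which overlaps Abi1 on the opposite strand, had 326 to 412 reads per library, and the counts by strand keep the genes apart.

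Abi2 (ENSMUSG00000026782, chromosome 1, 60409619 to 60481158, plus strand) had 15.9 to 20.0 CPM in WT and 16.0 to 18.5 in KO. The genotypes overlapped, with an averaged log2 fold change of -0.09 ± 0.12 (SE, edgeR adjusted p = 0.725), which was 0.04 with offsets for transcript length. Abi3 is a further paralog that was not among the 10 genes. It had 8.80 to 11.4 CPM in WT and 9.70 to 23.5 in KO, the highest being KO vehicle replicate 1, and its log2 fold change was 0.47 ± 0.221 (edgeR adjusted p = 0.318), called only without KO vehicle replicate 2 (0.7, edgeR adjusted p = 0.0132). At Abi3 the opposite strand, where Gngt2, Phospho1 and Zfp652 overlap it, held 83.1% to 92.5% of the reads on both strands. Whether some of those reads entered the count of Abi3 was not tested. Per kb of exonic length, Abi1, Abi2 and Abi3 made up 56.3%, 20.6% and 23.1% of the ABI level in WT and 56.8%, 16.8% and 26.3% in KO.

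Brk1 (ENSMUSG00000033940, chromosome 6, 113604772 to 113616951, plus strand), the small subunit that stabilises the WASF and ABI part, did not pass the test. It had 60.7, 43.3, 43.1 and 49.4 CPM in WT and 64.7, 57.7, 62.9, 43.2 and 44.1 in KO. The levels followed the class of library: 57.7 to 64.7 CPM in the 4 with long transcripts low, 43.1 to 49.4 in the other 5. The averaged log2 fold change was 0.18 ± 0.159 (SE, edgeR adjusted p = 0.593), and it was -0.04 with a term for the classes.

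**Figure D4:**
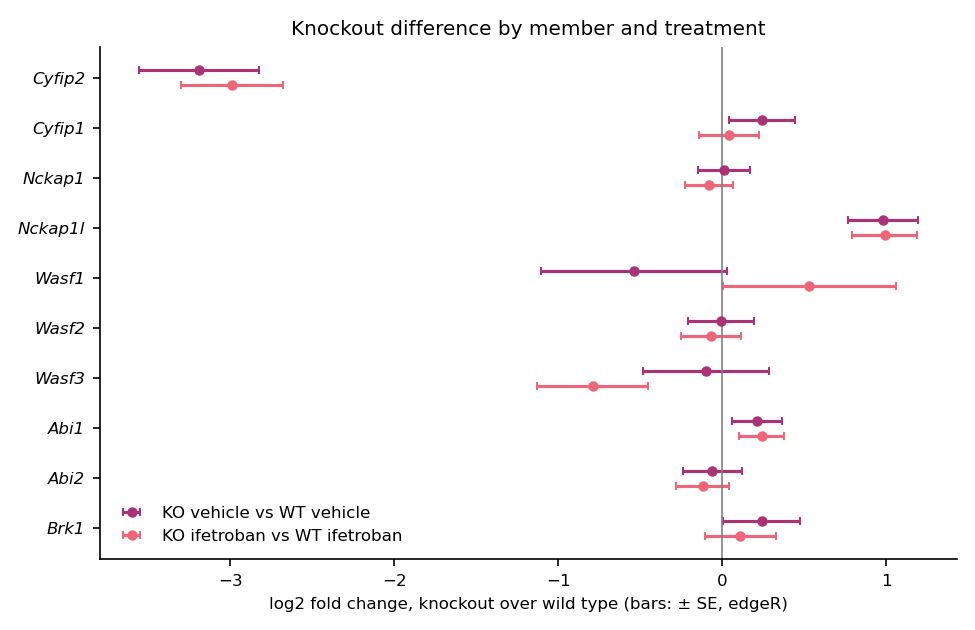
Log2 fold change of KO over WT for each gene, with vehicle and with ifetroban (points; bars are ± SE from edgeR). Cyfip2 lies at -3.19 and -2.99 and Nckap1l at 0.98 and 0.99, and the other 8 genes lie between -0.79 and 0.53.

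Ranked by level per kb, the order of the 10 genes in WT was Brk1 (44.9 CPM per kb), Cyfip2 (34.5), Nckap1 (21.6), Wasf2 (13.9), Abi1 (5.89), Cyfip1 (4.36), Abi2 (2.14), Nckap1l (1.3), Wasf3 (0.367) and Wasf1 (0.162). In KO it was Brk1 (49.8 CPM per kb), Nckap1 (21.2), Wasf2 (13.7), Abi1 (6.86), Cyfip1 (4.8), Cyfip2 (4.18), Nckap1l (2.59), Abi2 (2.02), Wasf3 (0.262) and Wasf1 (0.155). Apart from the place of Cyfip2, the order differed only in the neighbours Abi2 and Nckap1l. In WT 0 of the 9 neighbouring pairs overlapped over their libraries, and in KO 3 of 9 did: Cyfip1 with Cyfip2, Cyfip2 with Nckap1l, and Wasf3 with Wasf1. Differences between genes in this order also depend on the exonic lengths used.

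The 9 genes other than Cyfip2 were not called for ifetroban either, with 0 of 9 in WT, 0 of 9 in KO and 0 of 9 for the interaction, and 0 at an unadjusted p under 0.05 in each. DESeq2 called 0 of them in these comparisons as well. Their median log2 differences were 0.1 in WT, 0.04 in KO and -0.07 for the interaction, beside -0.02, -0.022 and 0.028 over all genes. The widest were in Wasf1, a gene of few reads, at -0.81 ± 0.573 in WT and 1.07 ± 0.775 for the interaction.

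Genes that act with the complex were listed in 8 groups of 103 genes, all of them tested. In the averaged comparison of KO with WT 0 of the 103 were called by edgeR, the smallest adjusted p being 0.0553, and the median log2 fold change was 0.11. None was called by edgeR in the other 5 comparisons either, and medians there ran from -0.05 to 0.13. The count of 0 changed with the tool, the filter and 1 library. In the averaged comparison DESeq2 called 11 of the 103 higher and 1 lower, where it called 4.48% of all genes with an adjusted p. Those higher were Actb, Apbb1ip, Arpc1b, Cfl1, Coro1a, Coro2a, Hcls1, Rac2, Tmsb10, Vav1 and Was, and Actr3b was lower. With vehicle alone DESeq2 called 5 higher, where it called 2.44% of all genes with an adjusted p. Without the filter on low counts edgeR called 18 higher and 3 lower (6.18% of all genes). Without KO vehicle replicate 2, a fit with 1 library left in that group, it called some as well. Named below, as values only, are the 3 members of each group with the smallest p.

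The 7 Rac and Arf GTPases, which switch the complex on, had a median of 0.39 and all 7 were positive. By class of library the median was 0.40 where long transcripts were low and 0.16 elsewhere, and it was 0.33 with a term for these classes. Rac2, the Rac of blood cells, had 3.01 to 3.41 CPM in WT and 5.16 to 9.26 in KO (log2 fold change 1.11 ± 0.238, edgeR adjusted p = 0.0743). Rhog, which acts on Rac through ELMO and DOCK proteins, was at 0.65 ± 0.191. The 19 Rac exchange factors and ELMO genes had a median of -0.04, which was 0.14 with the class term. Among them Vav1, the exchange factor of blood cells, had 2.26 to 3.34 CPM in WT and 4.15 to 9.58 in KO (1.26 ± 0.276, edgeR adjusted p = 0.0776).

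The 18 partners and adaptors of WAVE had a median of 0.02. The largest was Apbb1ip (RIAM), an adaptor that links Rap1 to integrins in leukocytes, with 4.08 to 6.64 CPM in WT and 8.01 to 14.1 in KO (1.07 ± 0.197, edgeR adjusted p = 0.0553). The 10 subunits of Arp2/3, the complex that WAVE activates, had a median of 0.36 with 8 positive. That median was 0.26 within the low class, 0.08 within the other and 0.19 with the class term, and the part of the class in it was not tested further. Arpc1b, the ARPC1 form of blood cells, was at 1.03 ± 0.253 (edgeR adjusted p = 0.0999). Actr3b, an alternative form of the ARP3 subunit, was at -0.71 ± 0.218 (edgeR adjusted p = 0.171), with 39.7 to 51.6 CPM in WT and 17.3 to 40.2 in KO.

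The 10 genes that inhibit Arp2/3 or release branches had a median of 0.21 with 9 positive. Coro1a, the coronin of leukocytes, which was also in the leukocyte list, was at 1.63 ± 0.366 (edgeR adjusted p = 0.0787). The 14 other activators of Arp2/3 and their partners had a median of -0.05. Hcls1, the cortactin of blood cells, was at 1.02 ± 0.235, and Was, the WASP of blood cells, at 1.05 ± 0.274 (edgeR adjusted p = 0.0842 and 0.116). Cttn, cortactin itself, was at 0.47 ± 0.167.

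The 6 partners of CYFIP in translation control had a median of -0.11. Eif4e, the cap-binding factor, was at -0.29 ± 0.133 with 115 to 142 CPM in WT and 89.5 to 123 in KO (edgeR adjusted p = 0.317). The 19 genes of actin filament turnover had a median of 0.28 with 14 positive, and 0.33 and 0.13 within the low class and the other. Cap1, with the smallest p of this group, had 44 to 55.9 CPM in WT and 59.2 to 107 in KO (0.59 ± 0.178, edgeR adjusted p = 0.165). Cfl1, the filament-severing cofilin, had 82.4 to 102 CPM in WT and 101 to 284 in KO (0.83 ± 0.257, edgeR adjusted p = 0.174). The rest of the 3 members per group had log2 fold changes of 0.35 (Cdc42), 0.58 (Dock2), -0.33 (Sos1), 0.57 (Enah), 0.56 (Vasp) and 0.47 (Arpc5). Further values were 1.62 (Coro2a), 0.68 (Gmfg), -0.24 (Fxr1), -0.14 (Fxr2) and 0.73 (Tmsb10), and none of these was called by edgeR. Several of the genes named from these groups are best known from blood cells. The leukocyte markers given above differed between the same libraries, and the part of those cells in these values was not tested.

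Cyfip2 lies on the same chromosome as Sgcd, the targeted gene. The gap between the spans is 583 kb, Sgcd running from 46896253 to 47988969 on the minus strand. The files listed 44 identifiers with spans within 1 Mb of Cyfip2, of which 13 were tested, and 1 of the 13 was called in the averaged comparison, where 0.537% of all genes were. That was Gm12167 (ENSMUSG00000085853), annotated as an antisense RNA, on chromosome 11 from 46342287 to 46345020 on the plus strand. Its start is 29.4 kb from that of Cyfip2, the pair being transcribed away from each other.

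Gm12167 had 8.93 and 6.88 CPM in WT vehicle and 5.10 and 5.39 in WT ifetroban. In KO it had 0.931 and 2.42 CPM with vehicle and 1.31, 0.767 and 1.47 with ifetroban. All KO libraries were below all WT libraries, on 20 to 61 reads in KO and 133 to 178 in WT. The averaged log2 fold change fell by 2.19 ± 0.297 (SE, edgeR adjusted p = 0.0284). It was not called without any single library other than the KO vehicle pair, with log2 fold changes of -2.3 to -2.08 and edgeR adjusted p of up to 0.172. Counted without regard to strand it was -2.44 (edgeR adjusted p = 0.0653).

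The other tested neighbours reported here were not called. Adam19, a metalloprotease on the other side of Cyfip2, had 22.3 to 83.4 CPM in WT and 32.5 to 84.5 in KO. Med7, a subunit of Mediator, had 9.35 to 12.5 and 8.38 to 13.9 CPM, and Clint1, an adaptor of clathrin coats, 60.7 to 69.9 and 60.8 to 73.9. Havcr2 (TIM-3), a receptor of immune cells, had 0.359 to 0.729 CPM in WT and 0.953 to 3.35 in KO, the one other neighbour reported here whose ranges did not overlap, as those of 7.31% of all tested genes did not. Thg1l, a transfer RNA enzyme, had 3.29 to 5.65 and 5.24 to 11.8 CPM. The ranges of WT and KO overlapped also for Lsm11, Sox30, Gm12166, Gm12174, Timd4 and Sgcd.

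**Figure D5:**
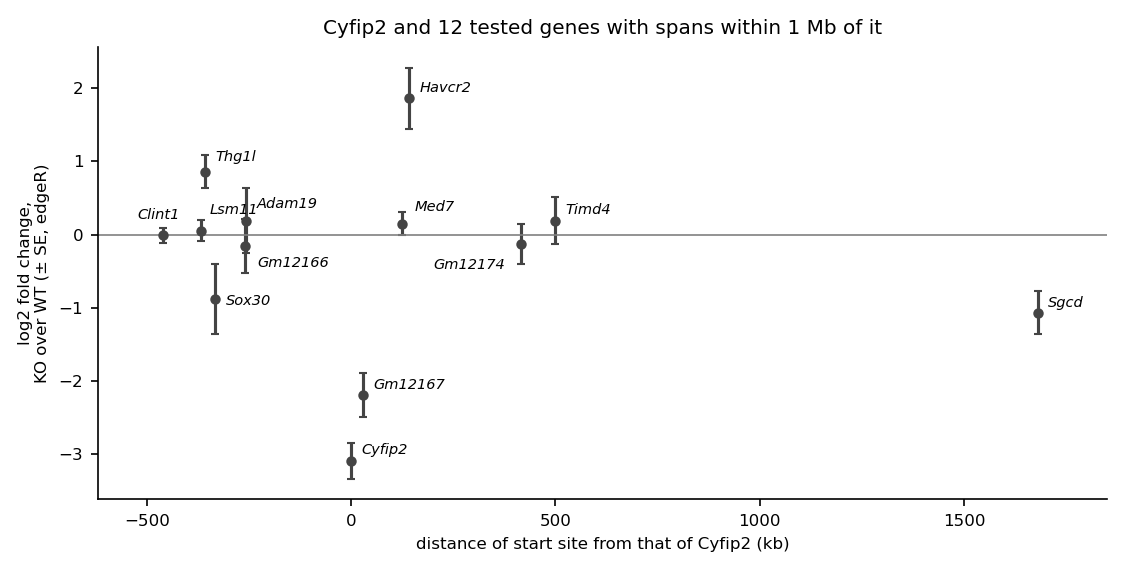
Averaged log2 fold change of KO over WT (points; bars are ± SE from edgeR) for Cyfip2 and 12 of the 13 tested genes with spans within 1 Mb, by the distance of their start sites from that of Cyfip2 in kb. Cyfip2 at -3.09 and Gm12167 at -2.19 are the lowest points.

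The genes whose pattern was most like that of Cyfip2 were found by the root mean square difference of mean-centred log2 CPM over the 9 libraries. The nearest was Gm12167, at a difference of 0.639 on the log2 scale, against a median of 1.6 over all other tested genes. The next were Sv2c, a synaptic vesicle protein, at 0.704, Ptchd3, a patched-domain protein, at 0.81, Cngb3, a subunit of the cone photoreceptor channel, at 0.903, and Tenm2, a teneurin of cell adhesion, at 0.909. Since Cyfip2 was selected for the genotype difference, likeness to it is mostly a difference between genotypes, and the values are a description.

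All of these were low in the ventricle. Sv2c (chromosome 13) had 1.08 to 2.54 CPM in WT and 0.327 to 0.698 in KO. Cngb3 (chromosome 4) had 2.57 to 4.87 and 0.512 to 2.38 CPM. Ptchd3 and Tenm2 lie on chromosome 11, as Cyfip2 does, but outside the window of 1 Mb around it. Ptchd3 runs from 121830247 to 121843423 and Tenm2 from 36006656 to 37235964. They had 7 to 11 and 4 to 22 reads in WT libraries and 0 to 5 and 0 to 6 in KO libraries. No subunit of the WAVE complex was among the 5 genes.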

How the data were processed

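Polyadenylated RNA of 9 left-ventricle libraries was measured, grouped by the genotype and treatment in the titles. Whether each library is a separate animal is not stated in the labels; the p-values then measure only the spread between these samples, part of which may be technical. The values deposited by the authors are raw counts of reads per gene. The tools named in the submitters' processing notes are HTSeq and STAR 2.5.2b, with the build GRCm38. Of the 3 count columns the reverse-strand one was used, as it held 14.5 times the counts of the forward one. Rows that name no gene held 26.6% to 31.9% of the reads and were left out. Replicates of a group differed beyond sampling noise (chi-square per degree of freedom 13.8 to 84.1).

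The test was edgeR's quasi-likelihood F test (version 4.0.16, R 4.3.3) after TMM scaling and filterByExpr, with 1 mean per group over all 9 libraries, two-sided, and Benjamini-Hochberg adjustment over 15261 genes. An adjusted p under 0.05 was called. SE was calculated back from fold change and F statistic and is approximate. Fold changes carry edgeR's prior count of 0.125. Levels per kb use the union of exons in the GENCODE annotation of GRCm38, which matched 49412 of 49671 identifiers. The fit was tested on simulated counts.

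The members and lists were chosen with earlier results of these data known. Named are the 10 members, Abi3, Sgcd, called members of each list or else up to 3 with the smallest p, tested genes within 1 Mb of Cyfip2, and the 5 genes most like it (log2 CPM with a prior count of 2). Csf1r was chosen after its values were seen. Alternatives were DESeq2 1.42.0 as a test, its size factors in edgeR, no filter on low counts, a filter of CPM 1 in 2 libraries, counts without regard to strand, only the groups compared, offsets for transcript length, a replicate block, libraries left out, a term for the class of libraries by long transcripts, and other lengths for the CYFIP share. The length of the longest coding transcript was added after seeing the data. The values of 1 tested neighbour of Cyfip2 are not reported here.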

Additional observations from a re-analysis of the deposited data

How the results depend on the processing

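The direction of Cyfip2 between genotypes was negative under every alternative run. With single libraries left out its log2 fold change was -3.72 to -2.8 with vehicle and -3.36 to -2.9 averaged over treatments. Its response to ifetroban had no stable sign. In WT it was -0.03 to 0.44 with single libraries left out, -0.03 when the library labelled WT vehicle replicate 1 and the first KO vehicle replicate were both left out, and -0.05 with the class term. In KO it was -0.01 to 0.91 with single libraries left out and -0.02 without both of those libraries. The interaction was -0.19 to 0.73 with single libraries left out.

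Of the 9 other members, DESeq2 and the fit without a filter each called 1 with vehicle and 1 with ifetroban. Of all genes with an adjusted p, DESeq2 called 2.44% with vehicle and 0.429% with ifetroban. The fit without a filter called 4.39% and 1.57% of all genes. With single libraries left out, the averaged log2 fold change of Nckap1l was 0.9 to 1.08, and its call depended on the library left out, as given above. In the averaged comparison 0 members were called with the class term, where 0.059% of all genes were. The share of Cyfip2 among CYFIP transcripts differed by -43 points between KO and WT, by -48.7 without division by length and by -49 with the longest coding transcripts.

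Small averaged values changed sign. Cyfip1 was -0.05 without both of those libraries. Nckap1 was -0.08 to 0.01 with single libraries left out, 0.01 with the class term and 0.08 within libraries with long transcripts low. Wasf1 was -0.39 to 0.23 with single libraries left out, 0.4 without both and 0.49 within libraries with long transcripts high. Wasf2 was -0.14 to 0.04 with single libraries left out, 0.03 with length offsets, 0.1 with the class term, and 0.15 and 0.05 within the classes low and high. Abi2 was 0.04 with length offsets and 0.08 within the low class. Brk1 was -0.04 with the class term and -0.05 within the high class. The endothelial marker Kdr, at -0.24 ± 0.229, was -0.47 to 0.05 with single libraries left out, 0.09 with the class term and 0.34 within the low class. The cause was not tested.

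Replicate numbers were shared between groups. Deviations of same-numbered libraries correlated at 0.00108 to 0.478 over 12 pairs, 0 of them negative. In groups of 2 libraries the deviations mirror each other, so several of these values repeat and the 12 are not separate. They do not settle whether the numbers pair the samples. The labels do not say that they do, and the main fit did not pair them. With a replicate block the interaction of Cyfip2 was -0.08, and the number of other members called was the same in each comparison. Over all genes the block moved the averaged count from 77 higher and 5 lower to 428 and 103. It made calls, all in edgeR, of 11 of the 103 pathway genes where 0 had been called, among them Apbb1ip, Arpc1b, Coro1a, Rac2, Rhog and Vav1, and of Sgcd (adjusted p = 0.0258) and Cngb3 (0.0367). With vehicle the count moved from 8 to 45. Depth limits Wasf1, Ptchd3 and Tenm2, which had few reads.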
